A study of Mus musculus with 4 samples.

Results

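Nr3c1 encodes the glucocorticoid receptor, and its gene held 4 peaks of HA-tagged human WDR5 (HA-hWDR5) at the T48h rescue and none at the T12h rescue. Members were all peaks with the summit inside Nr3c1 or within 20 kb of either end. They numbered 4 of the 660 peaks listed at T48h and 0 of the 1197 listed at T12h, and all 4 lay inside the gene. Of all protein-coding genes, 3.49% had a T48h summit in such a window and 7.69% a T12h summit. The gene was chosen because of these counts, so the counts and the values of its peaks are given as a description, with no test.

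The glucocorticoid receptor is a ligand-activated transcription factor of the nuclear receptor family. Without hormone it is held by chaperones in the cytoplasm, and after binding cortisol or corticosterone it enters the nucleus, binds DNA and recruits coregulators. WDR5 is a scaffold protein of the complexes that methylate lysine 4 of histone H3, and it also binds other chromatin factors, MYC among them. Nr3c1 is expressed in many tissues and has several alternative promoters at its 5′ end.

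The chromatin came from mouse embryoid bodies at day 6, grown by the SFEBq method in medium with 5% KSR, with 2% Matrigel from day 1. The starting embryonic stem cells carried GFP knocked in at Rx. In both groups Wdr5 was knocked out and HA-hWDR5 was induced with doxycycline, at T12h in one and at T48h in the other. The event from which these hours are counted is not named in the labels. The labels give neither the number of clones nor the number of cultures, and there was no group that kept mouse Wdr5 or lacked the tagged protein. Peak lists do not measure expression, so neither the labelled cell type nor the activity of Nr3c1 could be checked here. Each time had 1 anti-HA ChIP library and 1 input library, so no difference between the times has a replicate check. After duplicate removal the ChIP libraries held 55539917 tags at T12h and 67116740 at T48h, and the control libraries 54011542 and 61209779.

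In the RefSeq annotation of mm10, Nr3c1 spans 108.9 kb of chromosome 18 (39410545 to 39519421) and is listed with 15 transcripts, 5 of them curated and 10 predicted. It overlaps no other annotated gene. The nearest protein-coding genes are Arhgap26, 34.3 kb below the lower end, and Pabpc2, 254.1 kb above the upper end. The long non-coding RNA gene Gm30909 begins 19.9 kb above the upper end, just inside the window, and held no summit. The annotation used gives spans without strand or exons. From general knowledge of the mouse genome, Nr3c1 is transcribed from the minus strand, so its lower end is the 3′ end of the gene. Which exons, introns or untranslated regions the peaks overlap was not analysed here.

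All 4 peaks lay at the lower end of the gene, in an extent of 7.10 kb that makes up 6.52% of the span. Counted from the lower end, the first peak spans 39414460 to 39414644 and its summit lay 3.99 kb inside the gene. The second peak spans 39415619 to 39415915, with its summit at 5.21 kb. The third spans 39420520 to 39420795, with its summit at 10.05 kb, and the fourth spans 39421390 to 39421560, with its summit at 10.96 kb. The summits thus fell between 3.66% and 10.1% of the way into the gene, and the remaining 89.9% of the span, up to the upper end, held none.

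The peaks formed a pair of pairs. The summits of the first and the second were 1223 bp apart and those of the third and the fourth 913 bp, while 4837 bp separated the second from the third. The peaks themselves were separate calls, with 974 bp between the edges of the first and second and 594 bp between those of the third and the fourth. Together they covered 929 bp, or 13.1% of their extent. The summit sat at 40% and 46.5% of the peak width in the first and second peaks, at 26.8% in the third and at 68.4% in the fourth.

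**Figure D1:**
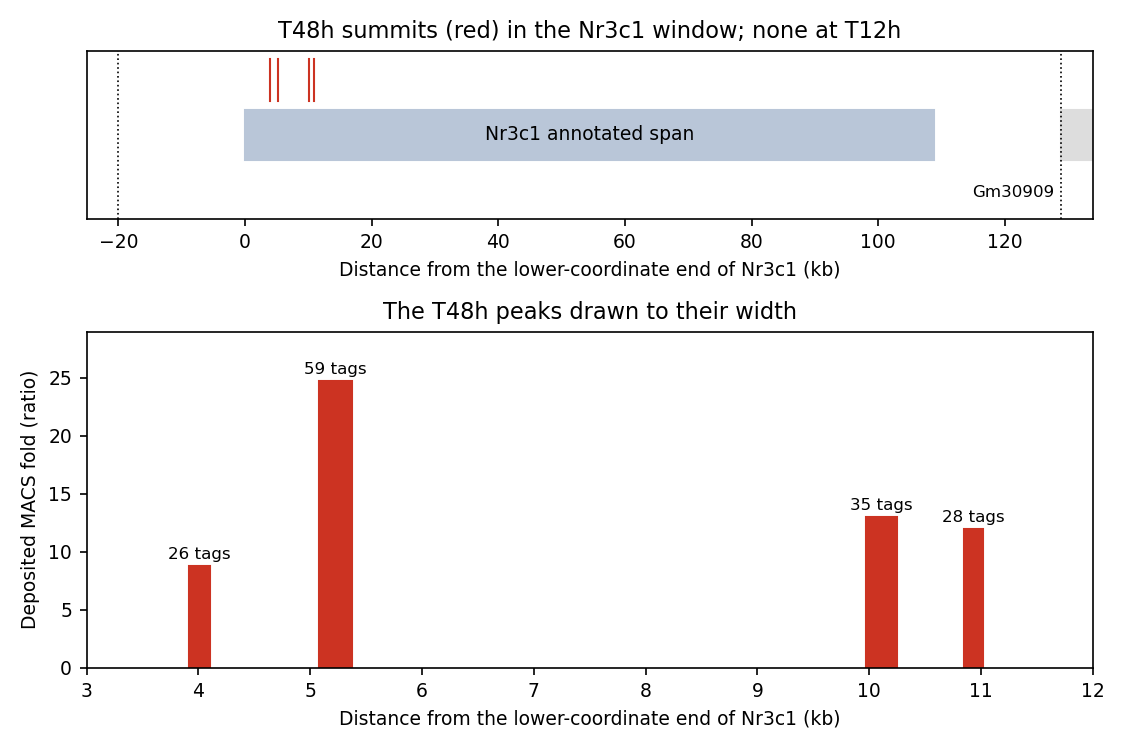
Upper panel: summits of the T48h peaks (red lines) along the annotated span of Nr3c1, in kb from its lower end, with dotted lines at 20 kb from either end. Lower panel: the same 4 peaks drawn to their width, with the deposited fold over local background as height; all lie between 3.99 and 10.96 kb, and the second, with 59 tags, is the tallest at 24.74.

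The second peak stood above the other members in every deposited measure. The deposited fold, the authors' ratio of tags to the local background estimated by the peak caller MACS, was 8.77 in the first peak, 24.74 in the second, 13.05 in the third and 12 in the fourth. The highest fold was 2.82 times the lowest. The deposited score, -10 times log10 of the MACS p-value, was 87.99, 288.57, 118.32 and 105.16 in the same order.

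The tag count was 26 in the first peak (exact Poisson 95% interval 17.0 to 38.1), 59 in the second (44.9 to 76.1), 35 in the third (24.4 to 48.7) and 28 in the fourth (18.6 to 40.5). These intervals cover counting error alone. The interval of the second peak overlapped that of the third and lay above those of the first and the fourth. It held 39.9% of the 148 tags of the 4 peaks. Per 100 bp of width the peaks held 14.1, 19.9, 12.7 and 16.4 tags, so the third, although second in tags, was the least dense.

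The peaks were narrow, at 185, 297, 276 and 171 bp. The median width was 297 bp over all T48h peaks, so 3 members were narrower than the median and the second was equal to it. The deposited false discovery rate, which MACS obtains by exchanging ChIP and control, was 5.29%, 3.23%, 4.96% and 5.13%, below the T48h median of 9.63% in every member. The median tag count of the list was 32.5, which the first and the fourth peak did not reach.

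Within the T48h list the members ranked higher by fold than by tags. The second peak was number 9 of 660 by fold (1.36% of the list at or above it), number 93 by score and number 183 by tags. The third, the fourth and the first were numbers 104, 113 and 210 by fold, and numbers 300, 376 and 405 by tags. Their median fold was 12.53, against 7.66 over all T48h peaks, and their median width 230.5 bp. Since members were selected from the same list, the ranks describe them and compare nothing with the T12h list.

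Peaks of like score elsewhere were wider and held more tags at a lower fold. Of the other T48h peaks, 93 had a score between those of the first and second Nr3c1 peaks. Their median width was 462 bp, their median tag count 57 and their median fold 8.10, and 16 of the 93 were no wider than the second Nr3c1 peak. Of the 93, 37 reached the fold of the first Nr3c1 peak. Among the 332 T48h peaks no wider than 297 bp, a single one had a higher fold than the second Nr3c1 peak, the middle peak of Myod1, a muscle transcription factor gene (162 bp, fold 62.13).

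**Figure D2:**
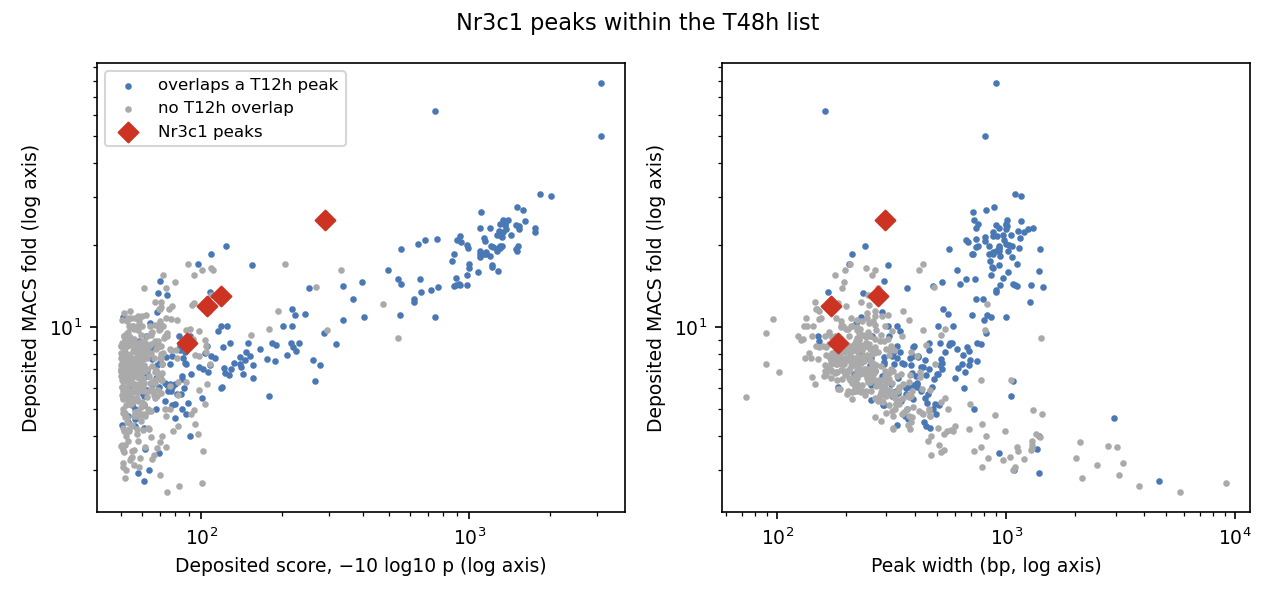
Each point is 1 of the 660 T48h peaks, with the deposited fold (log axis) against the deposited score (left) and the peak width (right), both on log axes; blue points overlap a T12h peak, grey points do not, and red diamonds are the 4 Nr3c1 peaks. The second Nr3c1 peak, at a fold of 24.74 and a width of 297 bp, lies above nearly all peaks of like score or width.

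None of the 4 peaks overlapped a T12h peak, and no T12h summit lay within 100 kb of the gene. Lack of overlap was common in the list, since 433 of all 660 T48h peaks had no T12h counterpart. Of the 9 T48h peaks with a fold of at least 24.74, the second Nr3c1 peak was the only one without a T12h counterpart. Of the 189 T48h peaks that scored at least as high as the first Nr3c1 peak, 149 overlapped a T12h peak and 40 did not, and the Nr3c1 peaks were 4 of these 40. The other members of the 40 included 3 in Lhx2 and 3 in Esrrb, and 21 lay inside no protein-coding gene. By score the second Nr3c1 peak was number 5 among the 433 T48h peaks without a counterpart, after peaks in Mycn, Lhx2 and Esrrb.

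The T12h list went down to lower values than those of the Nr3c1 peaks. Its lowest score was 50.01 and its lowest tag count 12; 690 of its 1197 peaks scored below 87.99, and 392 held fewer than 26 tags. The list names only sites past its threshold, so the T12h signal at Nr3c1 is not given by it, and the difference in fold between the times could not be computed. The T12h ChIP library was also the shallower one. The part of depth in the absence of T12h peaks was not tested.

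The surroundings of Nr3c1 were sparse in both lists. The nearest T48h peak outside the window lay 11.4 Mb below the gene (28014325 to 28014510, fold 8.51, 17 tags). At T12h the nearest lay 1.11 Mb below, in Rnf14 (38296630 to 38297092, fold 5.49, 42 tags), and 4.86 Mb above, 162 bp from Dcp2 (44380128 to 44380493, fold 8.93, 42 tags). Rnf14 encodes a RING finger protein and Dcp2 an mRNA decapping enzyme.

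Chromosome 18 as a whole held 19 T48h peaks (2.88% of the list) and 30 T12h peaks (2.51%). Nr3c1 thus held 21.1% of the T48h peaks of its chromosome. The other 15 had folds from 5.58 to 19.81 with a median of 8.51, and 7 of them overlapped a T12h peak. The second Nr3c1 peak had the highest fold on the chromosome.

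Few genes held several summits. At T48h, 284 of 21887 protein-coding genes (1.30%) had at least 1 summit inside, 5 (0.0228%) had 3 or more and 3 (0.0137%) had 4 or more. At T12h, 705 (3.22%) had at least 1, 3 (0.0137%) had 3 or more and none had 4. Nr3c1 is a long gene, since 9.96% of protein-coding genes are at least as long. Among those 2179 genes, 66 (3.03%) had a T48h summit and 2 (0.0918%) had 4 or more, Nr3c1 and Esrrb. The gene was chosen for its count, so nothing is read from it against these shares.

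The genes most like Nr3c1 in number of T48h summits were Esrrb, Rnf220, Lhx2 and Myod1, in order of the likeness of their median fold. Esrrb, an orphan nuclear receptor of the pluripotency network, held 5 T48h peaks with a median fold of 13.93, in a gene of 160.5 kb. Rnf220, a ubiquitin ligase gene of 225.6 kb, held 3 with a median of 10.06. Lhx2, an eye field and forebrain transcription factor gene of 30.5 kb, held 5 with a median of 9.05. Myod1, of 2.6 kb, held 3 with a median of 62.13. With 12.53, Nr3c1 lay between Esrrb and Rnf220.

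Nr3c1 and Lhx2 were the members of this group without any T12h peak. Esrrb held 2 T12h peaks, with folds of 7.86 and 5.92, and both overlapped T48h peaks, with folds of 14.15 and 13.93. The 3 Rnf220 peaks of T48h all lay on a single wider T12h peak, of 1195 bp and fold 36.69. The 3 Myod1 peaks had T12h counterparts with folds of 26.21 to 27.87.

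The arrangement inside the gene differed across the group. In Esrrb the summits ran over 98.1% of the span, with 1 of the 5 within 1 kb of an annotated start site, at 361 bp, and 3 in the last 10% near the opposite end. In Lhx2 they ran over 56.2% of the span, 1 of the 5 lay 528 bp from a start site, and the one with the highest fold (12.15) lay at 97.5% of the span. In Nr3c1 the 4 summits took up 6.40% of the span, and none lay within 97.9 kb of the upper end. The Rnf220 summits took up 0.291% of the span, 85465 bp or more from an annotated start site. No strand or start site of Nr3c1 is given in the tables used, so its distance to a start site was not computed.

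Peak widths overlapped with those of 3 of the 4 other genes. They ran from 171 to 297 bp in Nr3c1, from 316 to 477 bp at T48h in Esrrb and from 268 to 827 bp in Lhx2. In Rnf220 they ran from 249 to 522 bp and in Myod1 from 162 to 904 bp, so that narrow peaks were found there too. The Nr3c1 and Esrrb widths did not overlap, while Nr3c1 and Lhx2 overlapped at the narrowest Lhx2 peak (268 bp). Tag counts ran from 26 to 59 in Nr3c1, from 43 to 91 in Esrrb and from 24 to 130 in Lhx2, and these ranges overlapped.

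Close spacing was also rare. Nr3c1 was the only place in the T48h list with 4 summits within 6973 bp, the distance from its first to its last summit, and the T12h list had none. Groups of 3 within that distance lay at Lhx2, Rnf220 and Myod1 at T48h. The stretch of the Rnf220 group also overlaps a second annotated gene, Gm12843. At T12h such groups lay at Myod1, at 2 places among the 5S ribosomal RNA genes of chromosome 8, at a stretch of chromosome 6 outside annotated genes, and at Gm3489 and Gm13290. The distance was taken from Nr3c1 itself, so this too is a description.

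**Figure D3:**
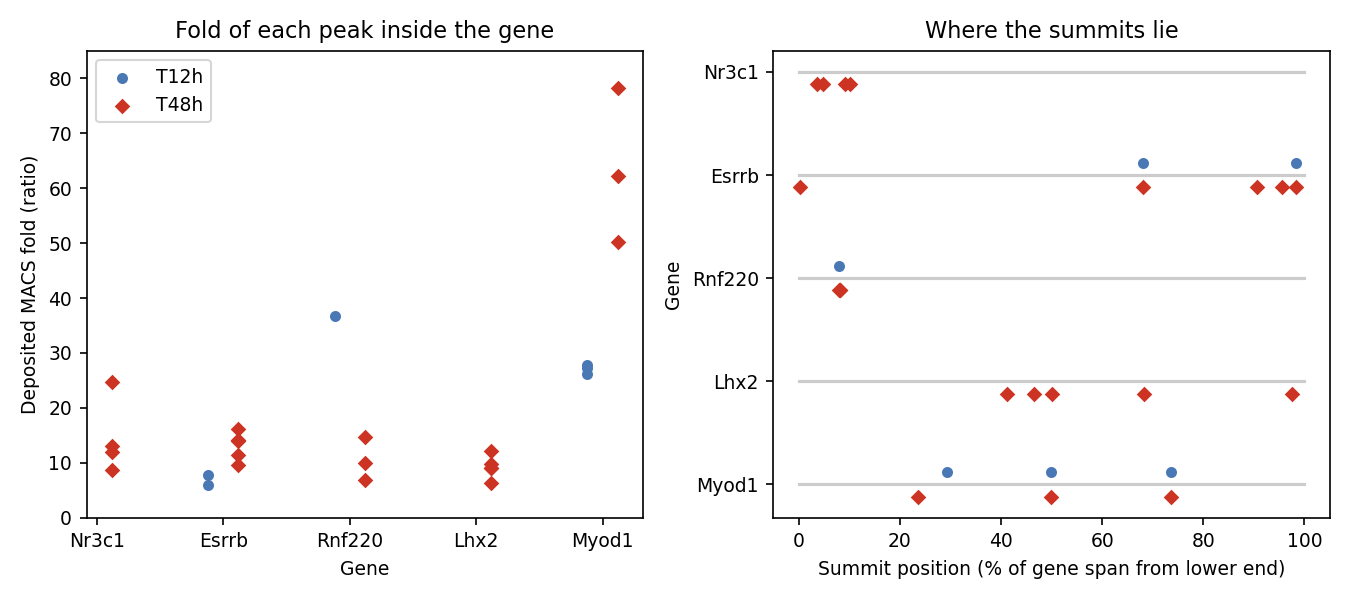
Left: deposited fold of each peak inside the 5 protein-coding genes with 3 or more T48h summits, at T12h (blue) and T48h (red). Right: position of each summit in percent of the gene's annotated span from its lower end, with the genes as grey lines; the Nr3c1 summits all lie between 3.66% and 10.1%, and those of Esrrb are spread over the gene.

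Other nuclear receptor genes, whose products are the relatives of the glucocorticoid receptor, were searched with the same window. Of 49 nuclear receptor genes, 5 had a T48h summit in or within 20 kb, against 3.49% of all protein-coding genes, and without Nr3c1 4 of 48 (8.33%). At T12h 9 of 49 (18.4%) had one, against 7.69%. Counted by summits inside the gene, the numbers at T48h were 4 of 49 (8.16%), and without Nr3c1 3 of 48 (6.25%), against 1.30% of all protein-coding genes. At T12h they were 3 of 49 (6.12%), against 3.22%. The list includes the gene this account was chosen for, and neighbours can share a peak.

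After Nr3c1, the T48h members were Esrrb, described above, Rara, Nr1d1 and Thra. Rara, the retinoic acid receptor alpha gene, held a pair of T48h peaks with folds of 6.75 and 7.45 (22 and 23 tags), which overlapped 1 T12h peak with a fold of 16.02 (93 tags). The T12h summit lay 178 bp from an end of Gm46294 and the T48h summits 260 and 62 bp, so that an end of this gene is nearer than one of Rara. Nr1d1, which encodes the circadian repressor REV-ERB alpha, and Thra, the thyroid hormone receptor alpha gene, are neighbours and shared 1 T48h peak with a fold of 6.75 and 20 tags, inside Nr1d1 and 170 bp outside Thra. No other nuclear receptor gene had a T48h peak with a fold as high as the second Nr3c1 peak.

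Of the closest relatives of the receptor, the mineralocorticoid receptor gene Nr3c2 and the progesterone receptor gene Pgr had no summit in or within 20 kb at either time. At T12h the highest score among nuclear receptor genes after Rara was that of a peak 4890 bp from Vdr, the vitamin D receptor gene, with a fold of 16.00 and 89 tags. The T12h peak at Rora lay 216 bp from an end of Ice2, so it is nearer to a neighbour. Further T12h members were Nr2e1, Nr2f2, Nr2f6 and Nr4a1, with folds from 4.39 to 8.25.

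**Figure D4:**
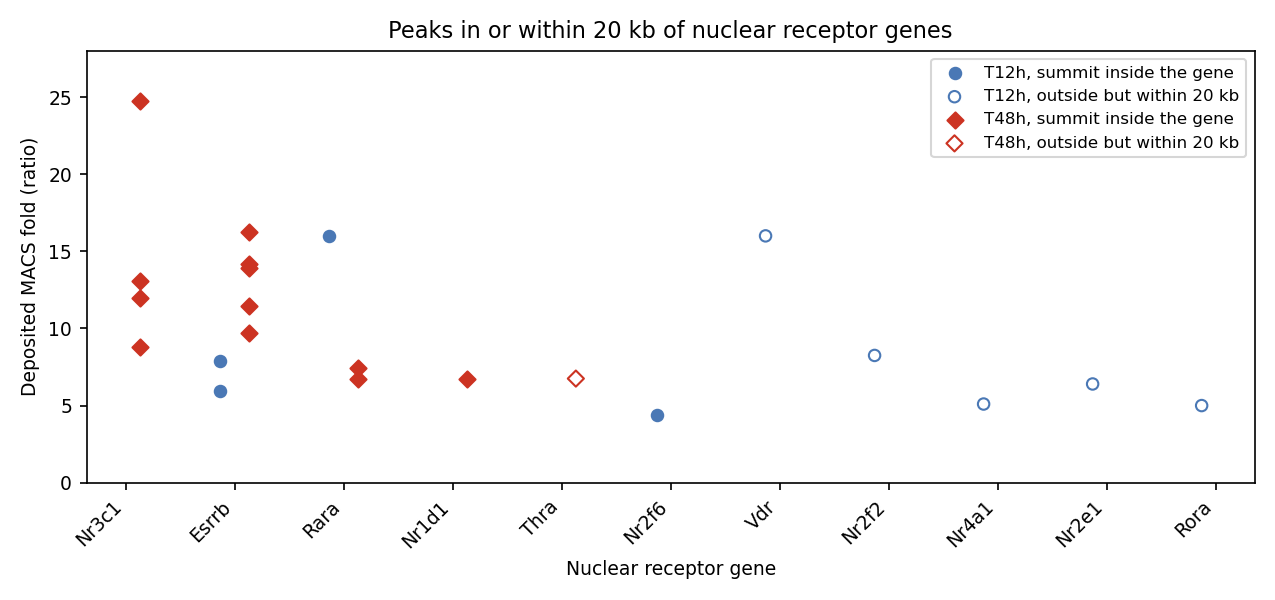
Deposited fold of each peak in (filled) or within 20 kb of (open) a nuclear receptor gene, at T12h (blue circles) and T48h (red diamonds), for the genes reported here. Nr3c1 and Esrrb hold 9 T48h peaks with folds from 8.77 to 24.74, and the T48h peaks of Rara, Nr1d1 and Thra lie between 6.75 and 7.45.

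Genes that act with the glucocorticoid receptor were counted with the same window, to be read against 3.49% of all protein-coding genes at T48h and 7.69% at T12h. Of 19 chaperone and cochaperone genes of the receptor, 2 (10.5%) had a T48h summit in the window, Hspa1a and Hspa1b, which encode inducible HSP70 proteins and share 1 peak (fold 4.62, 38 tags) lying inside Hspa1b. At T12h 4 of 19 (21.1%) had one, and Hspa1a and Hspa1b lie within 20 kb of each other's peaks. A peak inside Hspa1b had a fold of 13.74 and one inside Hspa1a a fold of 10.37, and Dnajb1, an HSP40 gene, had one of 4.95. Ptges3, which encodes the HSP90 cochaperone p23, had one 364 bp outside the gene with a fold of 6.16.

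Of 20 coregulator genes, none had a T48h summit in the window, where 3.49% of all protein-coding genes had one. At T12h 4 (20%) had one, against 7.69%. These lay 253 bp from Hdac2, a histone deacetylase gene (fold 9.62), 571 bp from Carm1, an arginine methyltransferase gene (6.68), inside Ncoa2, a steroid receptor coactivator gene (7.23), and 3515 bp from Crebbp, an acetyltransferase gene (7.07). The last lay 21 bp from an end of the neighbour Trap1.

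Of 29 genes known to respond to glucocorticoids, among them Fkbp5, Tsc22d3, Per1, Sgk1 and Dusp1, none had a T48h summit in the window. At T12h 1 (3.45%) had one, Klf9, which encodes a Krüppel-like factor (4868 bp outside the gene, fold 5.86, 49 tags). Of 17 genes for the synthesis, transport and supply of glucocorticoids, none had one at T48h and 1 at T12h, Pomc, the precursor gene of ACTH (inside the gene, fold 5.18, 25 tags). In lists of this size, counts of 0 or 1 lie near the shares of all protein-coding genes, 3.49% at T48h and 7.69% at T12h.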

How the data were processed

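Each ChIP library was deposited as 1 table of peaks, which per the file headers came from MACS 1.4.2 run with 1 control library. The p cutoff was 1e-05, the band width 300 bp, 1 tag was kept per position, and local background was taken over 1000 and 10000 bp. The submitters' processing notes name the build mm10 and list Bowtie2, deepTools, HOMER 4.9.1 and SAMtools 1.5. The deposited tag count is the whole number of tags in a peak. The deposited score is -10 times log10 of the p-value, the deposited fold is a ratio to local background, and their deposited false discovery rate is in percent; all are the authors' values.

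Summits (start + summit − 1) were placed on RefSeq gene spans of GRCm38.p6, the build mm10, with pandas 2.3.3 and numpy 2.4.6 in Python 3.11.15. Poisson intervals came from scipy 1.17.1 and figures from matplotlib 3.10.9. Peaks of both times counted as shared from 1 bp of overlap. The placing of summits and the overlap were tested on simulated positions. Alternatives changed the distance, the summit, the genes counted and the score, fold and false discovery rate required. The named genes are Nr3c1, members of 5 gene lists with a summit in the window (up to 4 with values), genes with 3 or more T48h summits and neighbours; Mycn, Gm46294, Ice2, Trap1 and the genes at close groups were named after their values were seen. A few genes within this rule are not reported here. Members and lists were chosen with earlier results of these data known. No test was run, since each group held 1 library. Input libraries were not analysed here, and neither exons nor sequence of chromosome 18 were used.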

Additional observations from a re-analysis of the deposited data

How the results depend on the processing

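The 4 T48h and 0 T12h peaks inside Nr3c1 were also found with any overlap of 1 bp, with 50% of the peak inside, with the middle of the peak in place of the summit, in the upper 50% of each list by score, at a false discovery rate of at most 10% and at a fold of at least 5. At a fold of at least 10, 3 T48h peaks remained, since the first has 8.77. Windows of 5, 50 and 100 kb gave the same 4 and 0, and no T12h summit lay within 10 kb of a member. Weighting by tags changed the median fold of 12.53 to a mean of 16.76. Counts over all genes moved more. In the upper 50% by score, 424 genes had a T12h summit and 177 a T48h summit, and 1 had 3 or more at T12h. Among genes at least 50% as long as Nr3c1 these were 238 at T12h and 106 at T48h, with 3 having 3 or more at T48h, since fewer genes were counted. Over all annotated genes, 5 had 3 or more at T12h. Of the 30 recomputed gene list counts, 12 moved by over 1.5 times. In the upper 50% by score, the nuclear receptor genes fell from 5 to 2 at T48h (Nr3c1 and Esrrb) and from 9 to 4 at T12h. No paired analysis was possible because there was 1 library per group. A peak list gives no signal below its threshold, so the T12h signal at Nr3c1 is not known from it.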
